A study of Arabidopsis thaliana with 6 samples.

Results

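Plants take up iron from soil as ferrous iron, move it through the vasculature and store the surplus in ferritin. In Arabidopsis roots the proton pump AHA2 acidifies the soil, the ferric reductase FRO2 reduces iron at the root surface and the transporter IRT1 carries it into epidermal cells. A shortage of iron is known to raise the transcripts of this uptake system and to lower those of ferritin, which forms hollow shells that hold iron in plastids. The 10 genes described here cover that route and were chosen by gene identifier: IRT1, IRT2, FRO2 and AHA2 for uptake, FRO3 and OPT3 for transport within the plant, and FER1, FER2, FER3 and FER4 for storage. They are 10 of 32833 genes in the table, and all 10 had enough counts to be tested.

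The groups were phod2 seedlings and wild-type (WT) seedlings of Arabidopsis thaliana, each harvested whole at 8 days and sequenced as 3 RNA libraries. The phod2 libraries carry LIP1 in their descriptions, and the title of the series concerns LIP1p, a plastid enzyme that makes the lipoyl cofactor, and phosphate balance. High and low phosphate are named for the series as a whole and not for any library, and the kind of mutation is not stated. The design text calls the 3 libraries of each genotype biological replicates and does not say how many plants or sowings they came from, so the tests speak to the variation among these 6 libraries.

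Depth ran from 17319308 to 22417595 counts per library, and 20169 genes had enough counts for the test. Levels are the deposited FPKM, counts scaled by exonic length and library total, and every fold change is phod2 over WT. A gene was taken as changed at an adjusted p of 0.05 or less (edgeR's quasi-likelihood test, Benjamini-Hochberg over all tested genes) and as changed 2-fold when the fold also reached 2. LIP1P, the gene of that enzyme, averaged 13.7 ± 0.690 FPKM in phod2 and 22.1 ± 1.14 FPKM in WT (SD, n = 3 each; log2 fold change -0.74 ± 0.06, SE, adjusted p = 4.7e-15). Markers of root and of shoot tissue were both present, and their values are given with the comparison of cell type markers.

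Of the 10 iron genes, 4 were higher in phod2 (IRT1, FRO2, FRO3 and OPT3), 5 were lower (AHA2 and the 4 ferritins) and IRT2 did not pass the test. Of all tested genes, 20.9% were higher in phod2 by the adjusted p and 24.6% were lower, while 1.79% passed 2-fold upward and 5.72% downward. The balance of the 2 directions turned with the scaling: TMM gave 4214 genes higher and 4958 lower, library totals gave 5476 higher and 4320 lower, and limma on log2(FPKM + 1) gave 4972 higher and 4057 lower. Passing the adjusted p alone was thus common in this table, and a 2-fold higher level was not. IRT1 and FRO2 were the 2 members past 2-fold, both higher, and 0 members were 2-fold lower in edgeR or in DESeq2. All 5 lower members passed the adjusted p in edgeR, and 4 of the 5 did in DESeq2. The phod2 libraries all lay above the WT libraries for 4 members and all below them for 5, against 30.8% and 23.3% of all tested genes. Groups without overlap were thus common. No such share was taken for the ratios, sums and shares of genes given below.

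**Figure D1:**
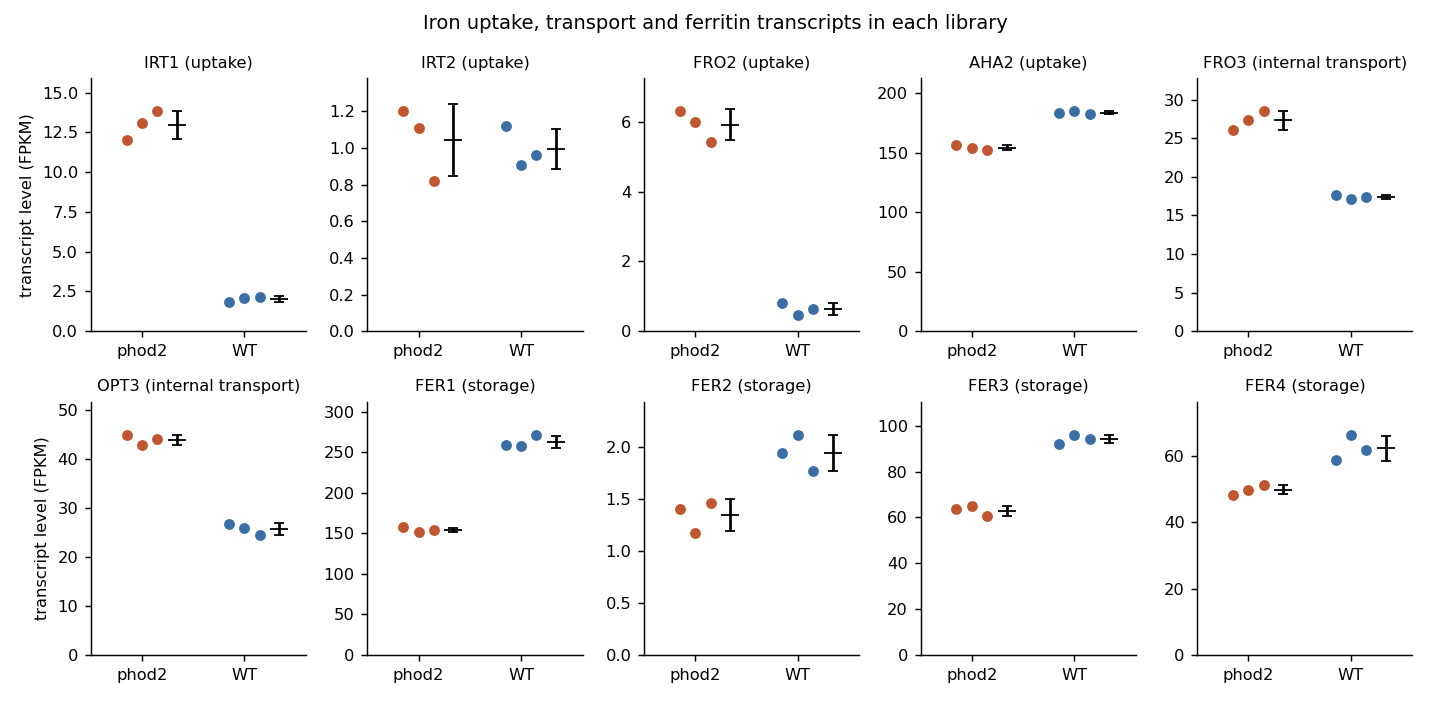
Transcript level (FPKM) of each of the 10 iron genes, with 1 point per library, phod2 on the left and WT on the right of each panel, and the mean with its SD beside the points (n = 3). The groups are apart in 9 panels and overlap for IRT2, and each vertical axis starts at 0.

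**Figure D2:**
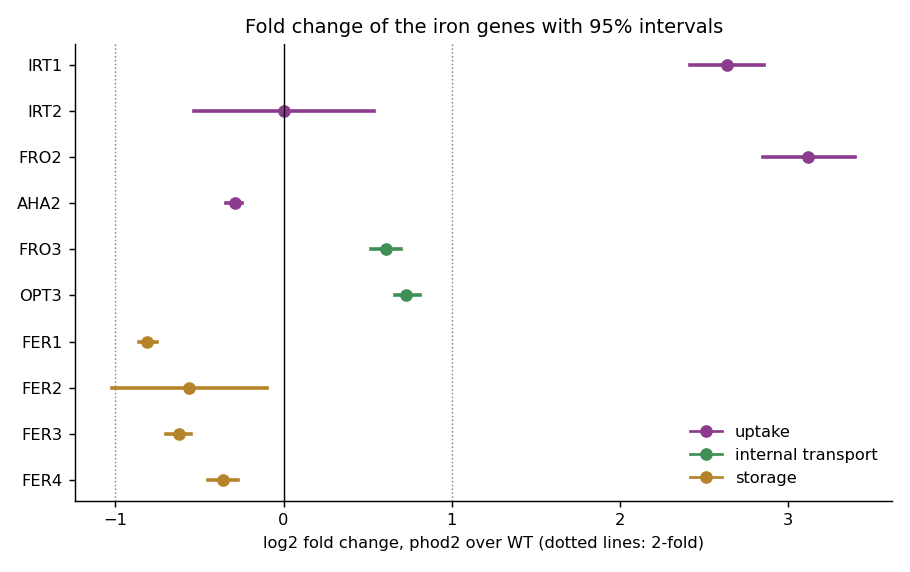
Log2 fold change of phod2 over WT for each gene (point) with its 95% interval (line), coloured by role, with dotted lines at 2-fold. IRT1 and FRO2 lie beyond 2-fold at 2.64 and 3.12, the 4 ferritins lie between -0.81 and -0.36, and the interval of IRT2 spans 0.

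The uptake genes did not move together. IRT1 (AT4G19690, chromosome 4, 10707344 to 10709015, plus strand) encodes the main ferrous iron transporter of the root epidermis, which also carries zinc, manganese, cobalt and cadmium. IRT1 had 12.01, 13.07 and 13.82 FPKM in phod2, against 1.85, 2.07 and 2.16 FPKM in WT. Every phod2 library was far above every WT library. IRT1 was 6.23-fold higher in phod2, with a log2 fold change of 2.64 ± 0.11 (SE; 95% interval 2.42 to 2.86; adjusted p = 6.1e-29).

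FRO2 (AT1G01580, chromosome 1, 208995 to 213082, plus strand) encodes the ferric chelate reductase of the root surface. FRO2 had 6.30, 6.01 and 5.43 FPKM in phod2, against 0.81, 0.47 and 0.65 FPKM in WT. The groups were apart by a wide margin, with more relative scatter in WT (coefficient of variation 26.4%, on 23 to 52 counts per library) than in phod2 (7.49%). FRO2 was 8.72-fold higher in phod2, the largest change of the 10 members in this test (log2 fold change 3.12 ± 0.14, SE, adjusted p = 2.7e-28). On the log2(FPKM + 1) scale of limma, which shrinks folds of low genes, it was 2.08.

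IRT2 (AT4G19680, chromosome 4, 10703348 to 10704838, plus strand) is a relative of IRT1 that lies just before it on the same strand and is known from intracellular vesicles of root epidermal cells. IRT2 had 1.20, 1.11 and 0.82 FPKM in phod2, against 1.12, 0.91 and 0.96 FPKM in WT. The groups overlapped, the fold change was within error of 1 (log2 95% interval -0.53 to 0.54, adjusted p = 0.992), and the 22 to 35 counts per library leave a change of up to about that interval undetectable. The IRT1 transcript aligned with that of IRT2 at 74.2% identity over 65.9% of its length. Its longest alignment was with the transcript of another gene, AT5G45105, at 75.8% identity over 69.0%. That gene also gave the longest alignment of IRT2 (71.8% identity over 52.4%). IRT1 made up 92.5% ± 1.76 of the summed IRT1 and IRT2 FPKM in phod2 and 67.0% ± 4.08 in WT (SD, n = 3 each), and the groups did not overlap.

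AHA2 (AT4G30190, chromosome 4, 14770395 to 14776247, minus strand), a plasma membrane proton pump, went the other way by a small amount. AHA2 had 156.67, 154.19 and 152.53 FPKM in phod2, against 183.68, 184.93 and 182.57 FPKM in WT. The 3 phod2 libraries lay below the 3 WT libraries, and AHA2 stood at 81.7% of the WT level (log2 fold change -0.29 ± 0.02, SE, adjusted p = 7.1e-17). Its closest relative by transcript, AHA1 (89.1% identity over 79.4% of the AHA2 transcript), averaged 203.4 ± 1.97 FPKM in phod2 and 194.7 ± 2.02 FPKM in WT (SD, n = 3 each) and did not pass the test after TMM scaling (log2 fold change 0.02, adjusted p = 0.425). The log2 ratio of AHA2 to AHA1 was -0.39, -0.38 and -0.42 in phod2 and -0.07, -0.09 and -0.08 in WT, without overlap. How reads that match both pumps were counted is not given in the sources used here, so the split between them is uncertain. Of the 11 pump genes of this family 9 were tested, with 2 higher, 2 lower and 5 that did not pass, and their log2 fold changes ran from -0.49 to 0.18. These counts are close to the shares of all tested genes, 20.9% higher and 24.6% lower.

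Genes that move iron inside the plant were both higher in phod2, by less than 2-fold. OPT3 (AT4G16370, chromosome 4, 9247302 to 9250343, minus strand) encodes a transporter that loads iron into phloem companion cells and takes part in telling the root how much iron the shoot has. OPT3 had 44.96, 42.95 and 44.23 FPKM in phod2, against 26.72, 26.02 and 24.51 FPKM in WT. All phod2 libraries were above all WT libraries, and OPT3 was 1.66-fold higher (log2 fold change 0.73 ± 0.04, SE, adjusted p = 7.3e-25).

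FRO3 (AT1G23020, chromosome 1, 8149868 to 8153796, minus strand) encodes a ferric reductase of the vascular tissue that the table describes as mitochondrial. FRO3 had 26.12, 27.33 and 28.48 FPKM in phod2, against 17.60, 17.12 and 17.41 FPKM in WT. The groups were apart, and FRO3 was 1.53-fold higher (log2 fold change 0.61 ± 0.04, SE, adjusted p = 2.5e-18). The nearest transcript to FRO3, that of FRO1 (84.1% identity), had 1 to 4 counts in any library.

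The gap between the root reductase and the vascular reductase narrowed in phod2. The log2 ratio of FRO2 to FRO3 was -2.05, -2.19 and -2.39 in phod2, against -4.44, -5.19 and -4.74 in WT. FRO3 thus stood above FRO2 in all 6 libraries, by a smaller factor in phod2. The 95% intervals of the log2 fold change were 0.66 to 0.81 for OPT3 and 0.52 to 0.70 for FRO3, which overlap, and the difference between them was not tested.

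All 4 ferritin genes, each of 8 exons, were lower in phod2. FER1 (AT5G01600, chromosome 5, 227953 to 230051, minus strand) encodes the most abundant ferritin of leaves, and its transcript is known to rise with iron excess. FER1 had 157.47, 152.33 and 154.31 FPKM in phod2, against 259.64, 258.51 and 271.41 FPKM in WT. The lowest WT library was far above the highest phod2 library, and FER1 stood at 57.1% of the WT level (log2 fold change -0.81 ± 0.03, SE, adjusted p = 4.5e-34).

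An antisense gene, AT5G01595, overlaps 63.6% of FER1 and 46.2% of its exon bases. It had 8, 5 and 10 counts in phod2, against 4, 4 and 8 counts in WT, too few to be tested and very few beside the 4027 to 8346 counts of FER1. The log2 fold change of FER1 was again -0.81 when the counts of both genes were added, an alternative chosen after seeing the data. Whether counting used strand is not given, so reads of the 2 genes cannot be told apart within the overlap.

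FER3 (AT3G56090, chromosome 3, 20813904 to 20816035, minus strand) encodes another plastid ferritin. FER3 had 63.62, 64.83 and 60.51 FPKM in phod2, against 92.22, 95.95 and 94.45 FPKM in WT. The groups were apart, with FER3 at 65.0% of the WT level (log2 fold change -0.62 ± 0.04, SE, adjusted p = 2.8e-22).

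FER4 (AT2G40300, chromosome 2, 16831109 to 16833294, minus strand) encodes a ferritin found in mitochondria as well as plastids. FER4 had 48.42, 49.92 and 51.27 FPKM in phod2, against 58.86, 66.36 and 61.86 FPKM in WT. The groups were apart by a smaller margin, and FER4 stood at 78.0% of the WT level (log2 fold change -0.36 ± 0.04, SE, adjusted p = 2.5e-10). FER4 shares 118 bases, 9.4% of its transcript, with AT2G40290 on the same strand, whose log2 fold change was 0.09 ± 0.04 (SE), so reads from that stretch may count for either gene.

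FER2 (AT3G11050, chromosome 3, 3463477 to 3465506, plus strand) is the ferritin of seeds. FER2 had 1.40, 1.17 and 1.46 FPKM in phod2, against 1.94, 2.11 and 1.77 FPKM in WT, from 26 to 50 counts per library. The groups did not overlap, and FER2 stood at 67.6% of the WT level (log2 fold change -0.56 ± 0.23, SE; 95% interval -1.02 to -0.10; adjusted p = 0.0389). This call was lost in DESeq2 (adjusted p = 0.15), on library totals without TMM (adjusted p = 0.0539) and without phod2 replicate 1, 2 or 3 or WT replicate 1 or 2 (adjusted p = 0.063, 0.136, 0.0524, 0.082 and 0.11).

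The estimated falls of FER1, FER3 and FER4 differed, in that order of size. The intervals of the log2 fold change were -0.86 to -0.75 for FER1, -0.70 to -0.55 for FER3 and -0.45 to -0.27 for FER4, and no 2 of these 3 overlap. The differences between the folds were not tested, and reads from the stretch shared with AT2G40290 may enter the FER4 values. Within single libraries the log2 ratio of FER1 to FER4 was 1.70, 1.61 and 1.59 in phod2 and 2.14, 1.96 and 2.13 in WT. The log2 ratio of FER3 to FER4 was 0.39, 0.38 and 0.24 in phod2 and 0.65, 0.53 and 0.61 in WT, and that of FER1 to FER3 was 1.31, 1.23 and 1.35 in phod2 and 1.49, 1.43 and 1.52 in WT. All 3 ratios were lower in every phod2 library than in any WT library. How often ratios of other gene pairs separate in this way was not looked at. Transcripts of the 4 genes aligned with each other at 73.0% to 78.4% identity, FER3 and FER4 being the closest pair.

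Summed over the 4 genes, ferritin transcripts averaged 268.9 ± 1.77 FPKM in phod2 and 421.7 ± 8.48 FPKM in WT (SD, n = 3 each), which places phod2 at 63.8% of WT. FER1 held 57.5% ± 0.682 of this sum in phod2 and 62.4% ± 1.12 in WT. FER4 held 18.5% ± 0.647 in phod2 and 14.8% ± 0.787 in WT. The shares of FER1 and of FER4 did not overlap between the genotypes, and the shares of FER3 (23.4% in phod2 and 22.3% in WT) and of FER2 did.

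Set against storage, the summed transcripts of IRT1, IRT2 and FRO2 stood higher in phod2. IRT1, IRT2 and FRO2 together came to 7.20%, 7.53% and 7.50% of the summed ferritin FPKM in phod2, against 0.916%, 0.816% and 0.878% in WT. The mean of this ratio was 8.52-fold higher in phod2, and no WT library came near a phod2 library. With AHA2, the most abundant of the uptake genes, the uptake sum itself was lower in phod2, at 176.2, 174.4 and 172.6 FPKM in phod2, against 187.5, 188.4 and 186.3 FPKM in WT. Its ratio to ferritin was still higher, at 64.9% ± 0.294 in phod2 and 44.5% ± 1.02 in WT (SD, n = 3 each), because the ferritin sum was lower by more. No test was made of these sums, since the genes were chosen with earlier results of these data known.

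**Figure D3:**
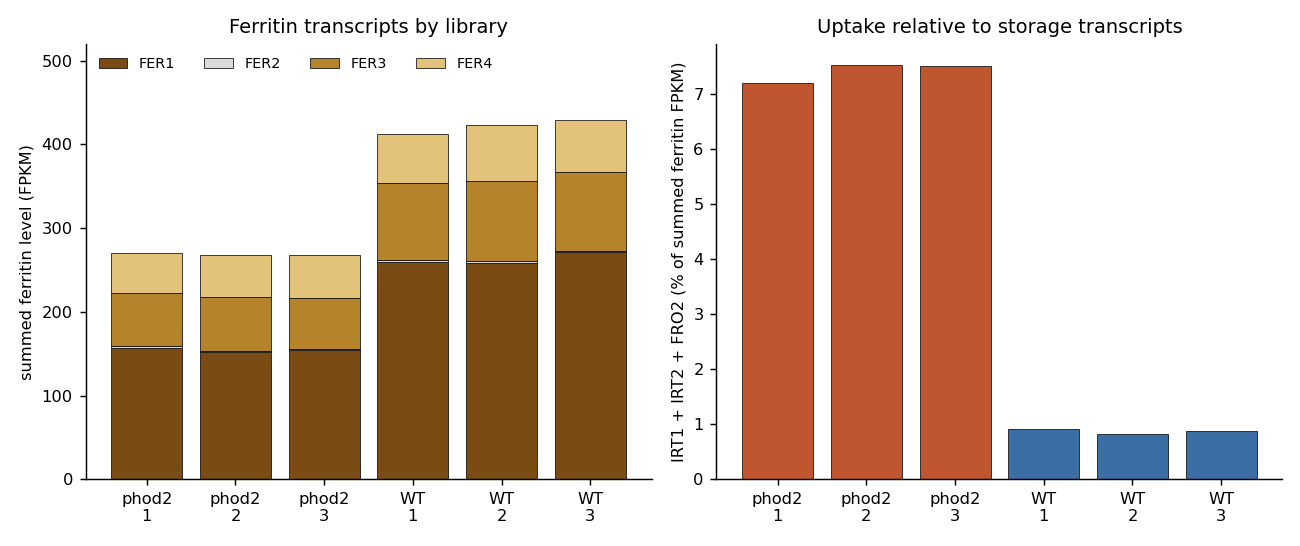
On the left, the FPKM of FER1 to FER4 stacked for each library, and on the right the summed IRT1, IRT2 and FRO2 FPKM as a percentage of the summed ferritin FPKM of the same library, with phod2 libraries left of WT libraries in both. Ferritin sums lie between 267.6 and 270.9 FPKM in phod2 and between 412.7 and 429.5 FPKM in WT, and the uptake percentage lies between 7.20% and 7.53% in phod2 and between 0.816% and 0.916% in WT.

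The order of the members by level differed little between the genotypes. In phod2 FER1 (154.7 FPKM) and AHA2 (154.5 FPKM) led with overlapping libraries, followed by FER3, FER4, OPT3, FRO3, IRT1 and FRO2, each apart from the next, and by FER2 and IRT2, which overlapped. In WT FER1 (263.2 FPKM) stood above AHA2 (183.7 FPKM) and the order went on with FER3, FER4, OPT3 and FRO3, each apart from the next. IRT1 and FER2 overlapped in WT, and IRT2 and then FRO2 (0.643 FPKM) came last. FRO2 thus held the lowest place in WT and stood above IRT2 and FER2 in phod2.

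Sequence around the gene starts was read to show what the members share. The G-box CACGTG is a site that basic helix-loop-helix proteins can bind, and ILR3 with PYE, proteins of that class, are known to repress ferritin genes when iron is short. Between 250 bases before and 50 after the annotated start, on both strands, CACGTG was found in 5 of the 10 members (FRO3, OPT3, FER2, FER3 and FER4) and in 8.7% of 20091 tested genes with such a window. These 5 include genes that were higher and genes that were lower in phod2. The E-box CANNTG, which contains the G-box, was found in the same 5 members and in 62.5% of tested genes, and IRT1, IRT2, FRO2, AHA2 and FER1 had none wholly inside the window.

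Sequences that carry these G-boxes are shown for FER3, FER4, OPT3 and FRO3. They run 5′ to 3′ on the gene's strand, from the RefSeq genome TAIR10.1, with CACGTG in capitals. The first 3 end at the base before the gene start, and that of FRO3 runs 10 bases past it because its G-box spans the start. FER3 lies at chr3:20816036-20816185, FER4 at chr2:16833295-16833444, OPT3 at chr4:9250344-9250493 and FRO3 at chr1:8153787-8153946, all on the minus strand.
FER3: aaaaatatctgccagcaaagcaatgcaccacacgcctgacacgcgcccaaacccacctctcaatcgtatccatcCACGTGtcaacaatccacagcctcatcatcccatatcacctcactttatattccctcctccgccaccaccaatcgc
FER4: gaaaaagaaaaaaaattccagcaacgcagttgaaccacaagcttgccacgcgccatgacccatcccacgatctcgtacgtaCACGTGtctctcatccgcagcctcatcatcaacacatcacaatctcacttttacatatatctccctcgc
OPT3: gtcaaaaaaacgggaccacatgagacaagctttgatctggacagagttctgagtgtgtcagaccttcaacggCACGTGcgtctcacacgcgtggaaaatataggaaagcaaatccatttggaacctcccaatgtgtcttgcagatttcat
FRO3: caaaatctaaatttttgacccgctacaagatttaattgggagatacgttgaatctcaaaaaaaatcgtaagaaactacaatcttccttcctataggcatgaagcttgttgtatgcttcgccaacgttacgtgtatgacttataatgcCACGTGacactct

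The G-box began 76 bases before the start of FER3, 69 before that of FER4, 78 before that of OPT3 and 3 before that of FRO3. In FER2 it lay inside the gene, from base 32. FER3 and FER4 also share the run cagcctcatcatc, the longest stretch common to their 150 bases, and in both genes it begins 11 bases after the G-box. This pair of ferritins thus has the same 2 blocks at the same spacing, and FER3 and FER4 were both lower in phod2, with different estimated folds.

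In FER1 the matches lay inside the annotated first exon, found when the search was widened to 1000 bases before and 600 after each start once the values had been seen. The exon's untranslated part covers 457 bases (chromosome 5, 229595 to 230051). It holds the phosphate element GNATATNC, bound by PHR1, the central factor of the phosphate starvation response, which is known to act on FER1. It also holds CACGAGNCC, the first letters, with 1 left free, of the known ferritin element through which low iron represses FER1. They begin at base 231 and base 268 of the gene, followed by a G-box at base 315, and are shown on the gene's strand in capitals.
FER1 phosphate element: acgtggatcGAATATCCtcacgttca
FER1 iron element: ggatgtagCACGAGGCCgccacacg
FER1 G-box: atccaccctcCACGTGgatctcaatc

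Within the window of 250 bases before and 50 after the start no member held the phosphate element (6.2% of tested genes did) or the iron element (0.2%). In the wider search the phosphate element also matched 2 times in FRO2, at bases 60 and 101 of the gene, once in OPT3 (392 bases before the start) and once in FER2 (416 before). The iron element matched only in FER1. Further G-boxes in the wider search lay in IRT1 (618 bases before the start) and OPT3 (356 and 309 before, and at base 122 of the gene). The 6.2% and 0.2% belong to the narrower window. No share over all genes was taken for the wider search, so whether its matches are more common here than elsewhere was not tested. All these matches describe the letters, and binding was not measured.

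**Figure D4:**
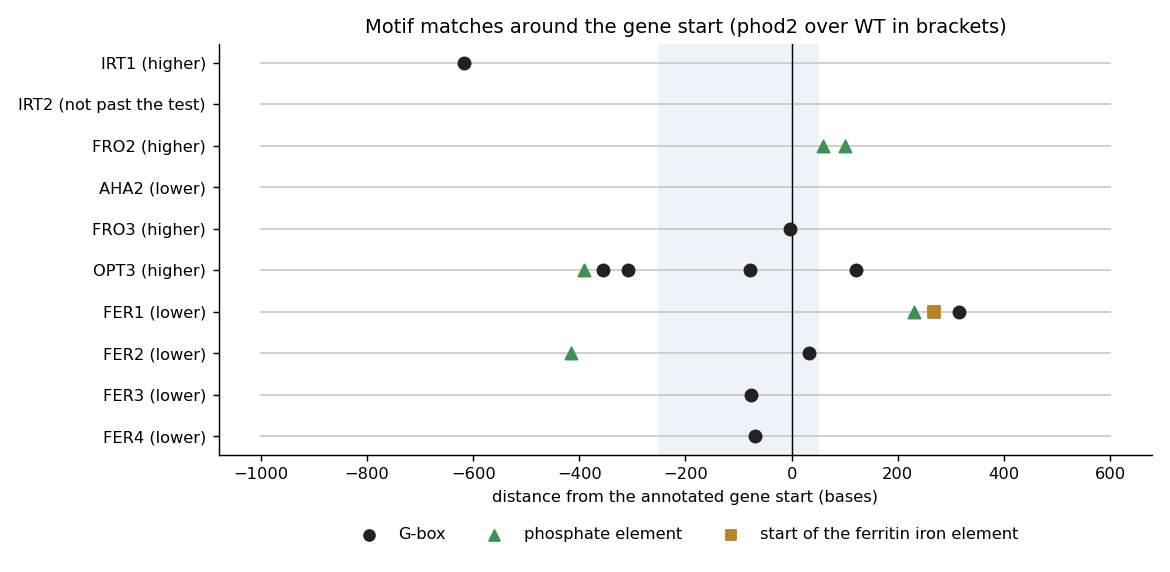
Positions of G-box (circles), phosphate element (triangles) and ferritin iron element (square) matches from 1000 bases before to 600 bases after the annotated start of each of the 10 genes, with the direction of phod2 over WT in brackets and the window from 250 before to 50 after shaded. FER3, FER4 and OPT3 each have a G-box 69 to 78 bases before the start, and FER1 has its 3 matches at 231, 268 and 315 bases into the gene.

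Other iron genes were read as lists. By the adjusted p, 20.9% of all tested genes were higher in phod2 and 24.6% were lower, the shares to set beside each list. Of 19 regulators of the iron response 18 were tested, of which 12 were higher in phod2 and 2 lower, with a median log2 fold change of 0.41 beside 0.01 for all tested genes. BHLH38, a factor that pairs with FIT to activate IRT1 and FRO2, averaged 3.37 ± 0.221 FPKM in phod2 and 0.417 ± 0.183 FPKM in WT (SD, n = 3 each). The genes of the iron signal peptides IMA2 and IMA3 had log2 fold changes of 3.32 ± 0.26 and 1.86 ± 0.13 (SE). FIT itself, looked up after its value was seen because IRT1 and FRO2 are its targets, was lower in phod2, at 4.36 ± 0.244 FPKM against 6.13 ± 0.406 FPKM in WT (log2 fold change -0.53 ± 0.12, SE, adjusted p = 1.9e-04). PYE was higher (0.33, adjusted p = 0.0145) and ILR3 did not pass the test (0.05, adjusted p = 0.348). Both were also looked up after their values were seen.

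Of 27 other genes of iron transport and chelation 25 were tested, with 12 higher, 5 lower and 8 that did not pass (median log2 fold change 0.18). Beside this list and the coumarin list below, 20.9% of all tested genes were higher and 24.6% lower. NAS4, which makes the iron chelator nicotianamine, averaged 16.1 ± 1.54 FPKM in phod2 and 5.95 ± 0.556 FPKM in WT. The reductase genes FRO6 and FRO7 had 51.2 ± 1.71 and 20.6 ± 0.733 FPKM in phod2, against 33.8 ± 0.602 and 11.2 ± 0.231 FPKM in WT; FRO7 serves the chloroplast. FRO4 and FRO5, known as copper reductases of the root and named after their values were seen, went down, with log2 fold changes of -0.92 ± 0.11 and -1.58 ± 0.13 (SE). The reductase family thus held members that were higher (FRO2, FRO3, FRO6, FRO7 and FRO8) and lower (FRO4 and FRO5). The smallest of these changes was the 0.15 of FRO8. The median log2 fold change of all tested genes was 0.008 with TMM and 0.049 on library totals. Other scalings are reported only for the members, so how the FRO8 call depends on scaling is not shown. Of 6 genes for coumarins, which mobilise iron outside the root, 2 were higher, 3 lower and 1 did not pass (median log2 fold change -0.31). CYP82C4, which makes the coumarin sideretin, averaged 3.95 ± 0.129 FPKM in phod2 and 0.187 ± 0.1 FPKM in WT. S8H, which acts before it, had 33, 36 and 60 counts in phod2, against 1, 0 and 0 counts in WT. PDR9, a coumarin exporter, was lower, at 10.8 ± 0.706 FPKM in phod2 and 19.2 ± 0.186 FPKM in WT.

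A list of 6 genes for other iron sinks and iron-responsive proteins went the way of the ferritins. All 6 were lower in phod2, with a median log2 fold change of -0.77 and a range of -1.36 to -0.12. Among all tested genes 24.6% were lower. VTL5, a vacuolar iron transporter-like gene of a group known to be repressed under iron shortage, averaged 13.1 ± 0.978 FPKM in phod2 and 32.8 ± 0.373 FPKM in WT (SD, n = 3 each) and was the one past 2-fold. The ascorbate peroxidase gene APX1 averaged 223.4 ± 7.17 FPKM in phod2 and 296.1 ± 8.35 FPKM in WT. NEET, the gene of an iron-sulfur protein, averaged 32.4 ± 0.677 FPKM in phod2 and 46.7 ± 5.43 FPKM in WT. The lists were chosen with earlier results of these data known, so their directions are no independent evidence.

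Cell type markers moved in the same libraries, where 20.9% of all tested genes were higher in phod2 and 24.6% lower. All 9 root hair markers were lower in phod2, and their summed level was 15 to 16.5 FPKM in phod2 and 44.9 to 50.6 FPKM in WT. Of 9 endodermis markers 7 were lower and 2 (SCR and ESB1) did not pass the test, and the sum of the 9 was 42.9 to 45.8 FPKM in phod2 and 106.8 to 116.4 FPKM in WT. GL2 and WER, markers of hairless root epidermis, were both lower, with a sum of 6.26 to 6.66 FPKM in phod2 and 8.58 to 9.82 FPKM in WT. Phloem markers summed to 150.4 to 155.4 FPKM in phod2 and 140.7 to 144.8 FPKM in WT, and 1 of 3 was higher. That marker, AHA3, is also 1 of the higher genes in the pump list above. AHA3 averaged 64.7 ± 1.4 FPKM in phod2 and 55.5 ± 0.403 FPKM in WT (SD, n = 3 each). Shoot mesophyll markers summed to 17563.0 to 17855.0 FPKM in phod2 and 16791.4 to 17058.3 FPKM in WT, with 3 of 5 higher and 1 lower. All these sums are deposited FPKM, without TMM scaling. After TMM the most abundant phloem and shoot markers, SUC2 and RBCS1A, did not pass the test (log2 fold change -0.05 and -0.01). No marker of these lists was at 0 in all libraries. In whole seedlings fewer cells of a type and less RNA per cell cannot be told apart.

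IRT1 and FRO2, which act mainly in the root epidermis, were thus higher in phod2 while the root hair and endodermis sums were lower, and AHA2 was lower as well. The part of tissue proportions in the members' differences was not tested.

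**Figure D5:**
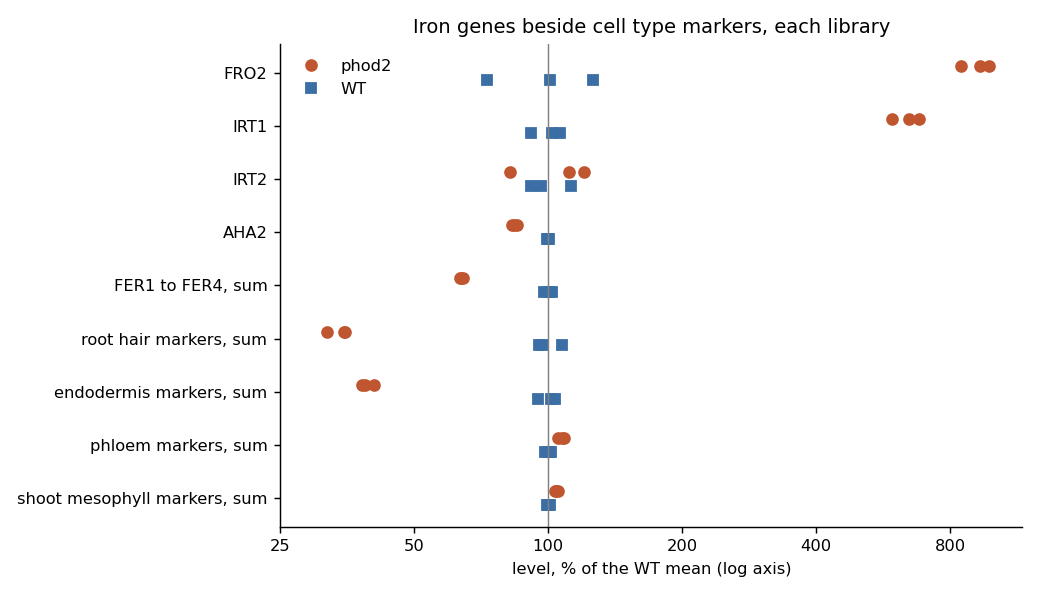
Level of FRO2, IRT1, IRT2, AHA2, the ferritin sum and the summed markers of root hair, endodermis, phloem and shoot mesophyll in each phod2 library (circles) and WT library (squares), as a percentage of the WT mean on a log axis. FRO2 and IRT1 lie far to the right in phod2, while the ferritin sum stands at 63.8% of WT, the root hair sum at 33.9% and the endodermis sum at 39.2%.

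Genes with the profile nearest to a member were found among 18360 other genes averaging at least 1 FPKM, by the root mean square difference of centred log2 CPM (counts scaled to a common library size) over the 6 libraries. Nearest to FRO2 were MGD3 (AT2G11810, a galactolipid synthase), PAP17 (an acid phosphatase), SPX1 and G3Pp1, at differences of 0.202, 0.243, 0.254 and 0.265. Nearest to IRT1 were ACC2 (an acetyl-CoA carboxylase) at 0.056, then AT1G80130, AT4 and LURP1 at 0.134 to 0.175. Nearest to FER1 were AT1G72416, PIP2A (an aquaporin), AT1G69450 and AT2G31390, at 0.024 to 0.031. Nearest to OPT3 were MES10, AT5G13370, ABCG15 and AT4G35750, at 0.024 to 0.038. The measure rests mostly on the step between the genotypes, so it picks genes with a like fold change.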

How the data were processed

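Whole seedlings were measured in 6 libraries, grouped by the sample labels. The deposited table gives whole-number counts per gene and FPKM per library, per the file headers, and the deposited FPKM equal count over exonic gene size (a further deposited column, in bases) and library total to within 0.005. No aligner, counter or strand setting is recorded in the labels or the table header (not given in the sources used here). A mouse build, mm10, stands in the submitters' processing notes; 32532 of 32548 identifiers found in TAIR10.1 have the same start and end there, as do all 10 members, so sequence was read from TAIR10.1.

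Counts were tested with edgeR 4.0.16 (quasi-likelihood, TMM, filterByExpr, genotype only, 2-sided) in R 4.3.3, and adjusted p-values cover all 20169 tested genes. The standard error is the log2 fold change over the root of the F statistic. The common biological coefficient of variation was 2.83%. The edgeR, limma and DESeq2 steps were tested on simulated data. Transcripts were compared with BLAST 2.17.0. Alternatives were DESeq2 1.42.0, limma 3.58.1 on log2(FPKM + 1) and log2(FPKM + 0.1), other scalings and filters, a 2-fold test, a replicate block and each library left out. Members and lists were chosen with earlier results of these data known. Genes outside the members are named by lowest adjusted p (up to 3 per iron list), by nearest profile (4 each for IRT1, FRO2, FER1 and OPT3), or by shared sequence or position. FIT, PYE, ILR3, FRO4, FRO5, FRO8 and the markers named singly fall outside this rule and were chosen after their values were seen, and LIP1P is named as the gene in the series title.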

Additional observations from a re-analysis of the deposited data

How the results depend on the processing

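IRT1 and FRO2 stayed at least 2-fold higher in phod2 in all 17 alternatives, with log2 fold changes of 2.21 to 2.69 and 2.08 to 3.33. FRO3 (0.58 to 0.65), OPT3 (0.70 to 0.77), AHA2 (-0.30 to -0.25), FER1 (-0.82 to -0.76), FER3 (-0.65 to -0.57) and FER4 (-0.40 to -0.31) kept their direction in all 17 and their call in all but the test against a 2-fold change, which by its construction passes only larger folds and gave 0 lower uptake genes, 0 higher internal transport genes and 0 lower ferritin genes. FER2 ranged from -0.63 to -0.33 and lost its call in 8 of 16 alternatives, among them the test against 2-fold. IRT2 never passed the test, and its log2 fold change changed sign without phod2 replicate 1 or 2 or WT replicate 2 or 3 (-0.10 to 0.16 over the libraries left out; -0.10, -0.05, -0.05 and -0.03 in these 4). IRT2 and FER2 had no value under the filter that kept genes reaching 5 FPKM in at least 3 libraries.

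Over all tested genes, the 362 higher and 1153 lower 2-fold calls became 88 and 422 under that filter, which tests fewer genes, 131 and 488 by limma on log2(FPKM + 1), and 147 and 596 when tested against 2-fold. The log2 ratio of the summed ferritin level was -0.65 on deposited FPKM and -0.69 when FPKM were scaled by TMM, and that of uptake (IRT1, IRT2 and FRO2) to ferritin was 3.09 on both.

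Correlations of deviations between phod2 and WT libraries of equal replicate number were -0.021, 0.010 and -0.008. Those of unequal number ran from -0.012 to 0.02. All tested genes enter these values, also those of low counts with much noise, so they cannot exclude pairing. With a replicate block, 364 genes were 2-fold higher and 1153 lower, the members' calls were unchanged and FER2 had an adjusted p of 0.0483. FER2 and IRT2, with 50 counts or fewer per library, are limited by depth.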
